A study of Drosophila melanogaster with 9 samples.

Results

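The genes described here encode 10 proteins of the sarcomere, the contractile unit of striated muscle, and include genes used mainly in the flight muscle of the fly. They were chosen by symbol (Mhc, fln, sls, bt, Strn-Mlck, Act88F, Act79B, up, wupA and TpnC4) from the 13140 genes with counts in the deposited tables. Earlier results of these data were known when they and all further lists were chosen, so counts beside shares of all genes are descriptive. All 10 of 10 passed the filter on low counts, as did 12913 genes in all. Polyadenylated RNA of whole adult Drosophila melanogaster was sequenced in 9 libraries of 3 groups with 3 libraries each. All sampled flies were wild-type by genotype, in the Canton S background, and 10 to 11 days old as adults. The groups differed in descent: WT flies had neither an obese grandparent nor a heterozygous parent, GP/P flies descended from an obese grandfather through their father, and GP/M flies through their mother. The series title traces that obesity to mutation of AKHR, the receptor for adipokinetic hormone, which mobilises stored fat. The comparisons ask whether muscle transcripts of grandchildren differed with descent from an obese grandfather. Since WT flies lacked a heterozygous parent as well as an obese grandparent, effects of the parent's genotype and of the grandfather's obesity cannot be told apart. The labels state neither the sex of the flies nor how many went into a library. Each library number (1, 2 or 3) marks 1 experimental replicate, called a set here, which gave 1 library of every group.

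In a sarcomere, myosin motors of the thick filament pull on actin thin filaments, and calcium binding to troponin on the thin filament switches this on. Indirect flight muscle, which powers the wing beat, is unusual in that it is also activated by stretch, so that many contractions follow from 1 rise in calcium. Very large elastic proteins of the titin family link the thick filaments to the Z-disc, where the thin filaments are anchored, and set the stiffness of the muscle. Flies use separate actin and troponin C genes in different muscles, which makes some of these genes markers of flight muscle.

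Libraries held 21777434 to 28166388 counts, and the 10 genes together took 0.374% to 0.475% of them, the lowest share in WT 1 and the highest in GP/M 3. Levels of single genes below are CPM after TMM normalisation (counts scaled by library total and by a factor from trimmed ratios between libraries). Summed levels of several genes are CPM of the library total without that factor. Differences are log2 fold changes or folds from edgeR. Libraries of the same set deviated together: across genes, the correlation of deviations from group means was 0.0657 to 0.293 in the 9 same-set pairs and -0.267 to 0.0267 in pairs of different sets. In the whole-fly libraries, none of the 7 neuron, 7 fat body, 7 gut, 8 accessory gland and testis or 5 eggshell and ovary markers was at 0 in every library. The summed markers of male accessory gland and testis stood at 3534 to 4004 CPM, and those of eggshell and ovary at 5.63 to 8.22 CPM.

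Per kilobase of exon, the genes of troponin T, troponin I and myosin heavy chain were the highest of the 10 genes. Over the 9 libraries, up, which encodes troponin T, stood at 198 ± 8.91 CPM per kb (SD, n = 9). The level of wupA, the gene of troponin I, was 177 ± 4.05 CPM per kb, and that of Mhc, the muscle myosin heavy chain, was 161 ± 16.7 CPM per kb. Act79B, an actin of non-flight muscles, followed at 104 ± 5.63, and TpnC4, a troponin C of flight muscle, at 97.7 ± 6.76 CPM per kb. The flight muscle thick filament protein flightin (fln) stood at 33.5 ± 2.41 CPM per kb, bt at 23.7 ± 2.11 and Act88F, the flight muscle actin, at 21.3 ± 3.65. The lowest were sls, at 12.1 ± 1.40, and Strn-Mlck, at 8.46 ± 0.801 CPM per kb. Within that order, wupA and Mhc, Act79B and TpnC4, and bt and Act88F lay within their spread. Lengths are of all annotated exons of a gene, so a gene of which few exons are used in a transcript is understated, which touches the giant genes sls, bt and Strn-Mlck most. Actin genes are near-identical over their coding parts and no source used here says how reads matching several genes were counted, so the Act88F and Act79B values are uncertain.

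**Figure D1:**
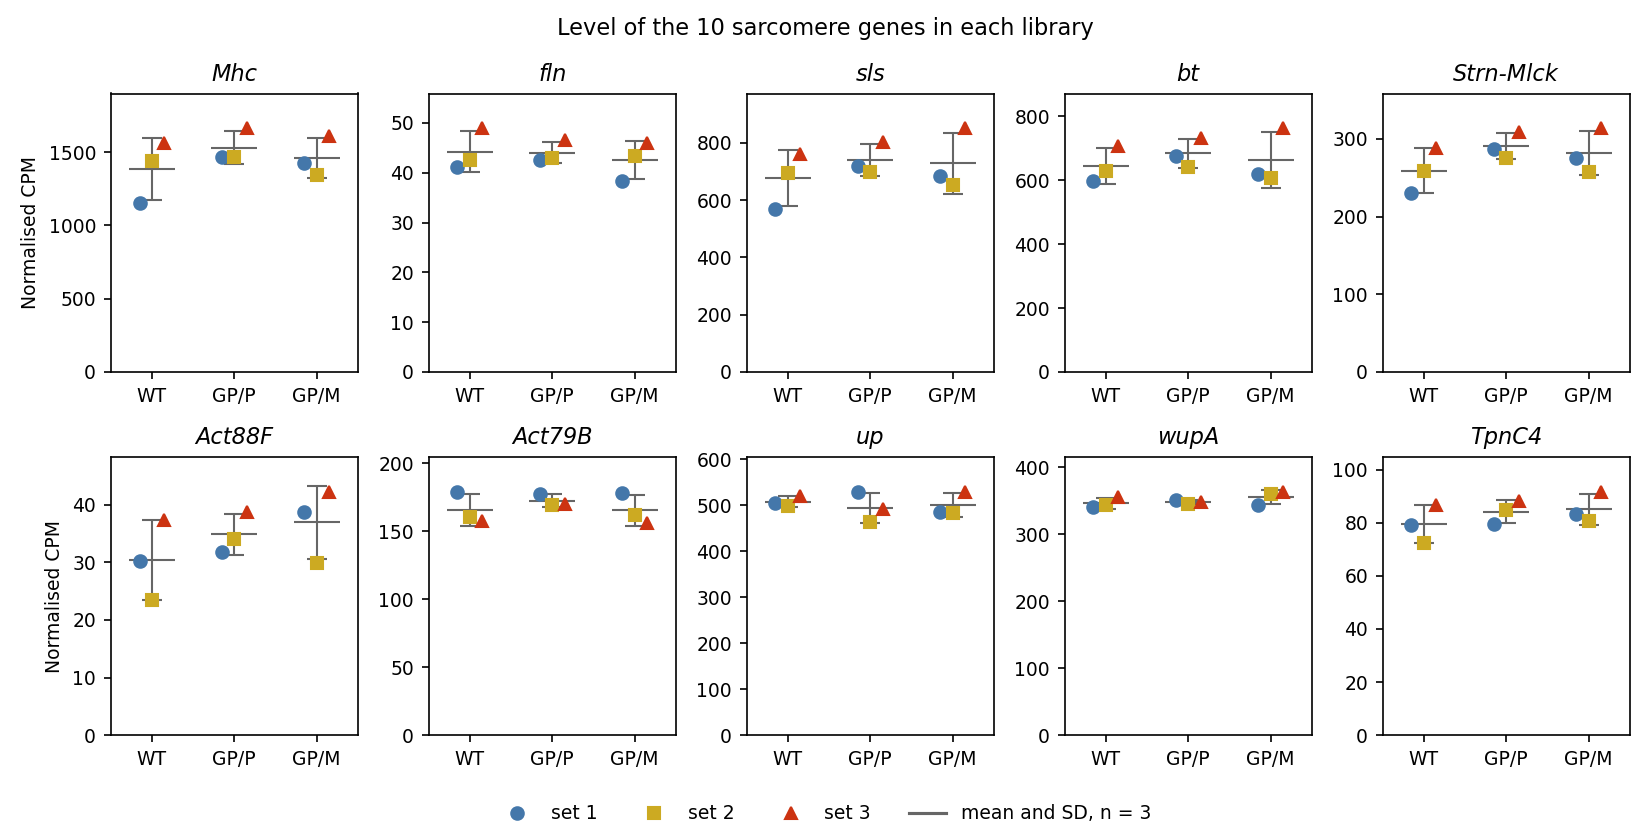
Normalised CPM (vertical axes, each from 0) of the 10 sarcomere genes in the 3 libraries of each group (horizontal axes); symbols mark the set, and bars show the mean and SD. Groups overlapped for each of the 10 genes, and triangles (set 3) lay highest within the group for Mhc, sls, bt, Strn-Mlck, Act88F, TpnC4 and fln.

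Among the thick filament genes, Mhc stood at 1153, 1439 and 1564 CPM in WT 1 to 3. It stood at 1463, 1465 and 1662 CPM in GP/P, and at 1423, 1346 and 1610 CPM in GP/M. The 3 groups overlapped, WT 1 was the lowest library and the set 3 library was the highest of its group each time. GP/P was 1.10-fold of WT (95% interval 0.938 to 1.30) and GP/M 1.05-fold (0.894 to 1.24). Flightin, which stiffens the thick filament of flight muscle and is needed for flight, was at 41.1, 42.5 and 48.9 CPM in WT, at 42.6, 43.0 and 46.5 in GP/P, and at 38.4, 43.3 and 46.0 in GP/M. The groups overlapped, and fln was again highest in set 3 of every group. Its fold was 0.997 (0.886 to 1.12) in GP/P and 0.963 (0.856 to 1.08) in GP/M.

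Of the genes for giant connecting proteins, sls encodes Sallimus and kettin, which tie the thick filament to the Z-disc. It was measured at 570 (WT 1), 695 and 762 CPM in WT, at 719.8, 699 and 802 in GP/P, and at 683, 651 and 851 in GP/M. WT 1 was low against the other 8 libraries, the set 3 libraries were high and the groups overlapped. The gene bt encodes projectin, a kinase-containing protein of the titin family, and stood at 596, 628 and 708 CPM in WT. It stood at 676, 643 and 733 CPM in GP/P, and at 619.9, 608 and 763 in GP/M. Both bt and sls had their lowest value in WT 1 and their highest in GP/M 3. Strn-Mlck encodes stretchin, a protein related to myosin light chain kinase, and stood at 230.4, 259 and 288 CPM in WT. It stood at 287, 276 and 309 CPM in GP/P, and at 275, 257 and 314 in GP/M. WT 1 lay below every other library, while WT 2 and GP/M 2 were close together. Strn-Mlck had the smallest unadjusted p of the 10 genes in GP/P against WT, 0.086 in edgeR, at 1.12-fold (0.981 to 1.28), and the adjusted p was 0.999712.

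Of the thin filament genes, Act88F stood at 30.3, 23.4 and 37.3 CPM in WT. It stood at 31.7, 34.1 and 38.7 CPM in GP/P, and at 38.7, 29.9 and 42.3 in GP/M. WT 2 was the lowest library and GP/M 3 the highest, 1.80-fold apart, and the groups overlapped. Act88F had the largest fold of the 10 genes against WT, 1.15 (0.86 to 1.54) in GP/P and 1.22 (0.912 to 1.64) in GP/M. Its intervals include 1 in this fit, which does not take the set into account. Its SD within groups, 0.26 on the log2 scale, exceeded that of 91.9% of all tested genes. Act79B stood at 179, 161 and 158 CPM in WT, at 178, 169.5 and 170.4 in GP/P, and at 178, 162 and 156 in GP/M. Unlike Act88F, Act79B had the highest value of each group in set 1, and its groups overlapped. The troponin T gene up stood at 505, 498 and 520.1 CPM in WT, at 528, 462 and 491 in GP/P, and at 486, 483 and 529 in GP/M. The troponin I gene wupA lay between 340.2 CPM in WT 1 and 364 CPM in GP/M 3, a 1.07-fold range over the 9 libraries, and only 2.64% of genes had a smaller SD within groups. TpnC4, whose product is linked to stretch activation of flight muscle, stood at 79.2, 72.5 and 86.8 CPM in WT, at 79.5, 84.6 and 88.3 in GP/P, and at 83.1, 80.6 and 91.7 in GP/M. The TpnC4 groups overlapped, with set 3 highest in each.

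None of the 10 genes passed an adjusted p of 0.05 in any comparison of groups. In edgeR the same held for the 12913 genes tested, of which 0% were called in GP/P against WT, in GP/M against WT, in GP/P against GP/M and in both lines together against WT. At an unadjusted p under 0.05, 0 of the 10 genes passed in the 4 comparisons, where 2.59%, 1.53%, 1.7% and 2.01% of all genes did, in that order; DESeq2 and limma-voom also called 0 of the 10 after adjustment. The median log2 fold change of the 10 genes was 0.085 in GP/P and 0.059 in GP/M against WT, beside 0.0028 and 0.0025 over all genes tested. Single libraries moved these medians: for GP/P to 0.033 without WT 1, 0.038 without WT 2, 0.15 without WT 3 and 0.056 without GP/P 3. For GP/M they were 0.018 without WT 1, 0.035 without WT 2, 0.14 without WT 3, 0.091 without GP/M 1, 0.12 without GP/M 2 and 0.0097 without GP/M 3. The libraries of the groups compared overlapped for all 10 genes in each pair of groups. Of all genes, 4.07% in GP/P lay wholly above WT and 4.41% wholly below it. For GP/M these shares were 2.37% and 2.53%, and for GP/P set against GP/M they were 3.68% and 3.24%. GP/P lay above WT for 8 of 10 genes and GP/M for 7 of 10, and both comparisons use the same WT libraries. Of the markers of other tissues, 0 of 8 accessory gland and testis markers were above WT in either line. Above WT in GP/P were 1 of 7 fat body, 3 of 7 neuron and 2 of 7 gut markers. In GP/M these were 2 of 7, 2 of 7 and 3 of 7. Of 3 eggshell and ovary markers tested, 1 was above WT in each line, and 0 markers of any list were called. The fat body list includes the yolk protein genes Yp1, Yp2 and Yp3, which were low, at a mean of 2.69, 1.75 and 11.1 CPM. The accessory gland and testis markers summed to 3594 to 4004 CPM in WT, 3534 to 3734 in GP/P and 3641 to 3852 in GP/M, and the fat body markers to 3461 to 4670, 3548 to 4204 and 3543 to 4136 CPM. The part of these tissues in the sarcomere differences was not tested, nor was that of exon length in the marker differences. Between the lines, the median was 0.033 with GP/P above GP/M for 6 of 10 genes. The widest 95% interval, that of Act88F, spanned a factor of 1.80 between its bounds. In bulk RNA, fewer muscle cells and less muscle RNA per cell cannot be told apart.

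**Figure D2:**
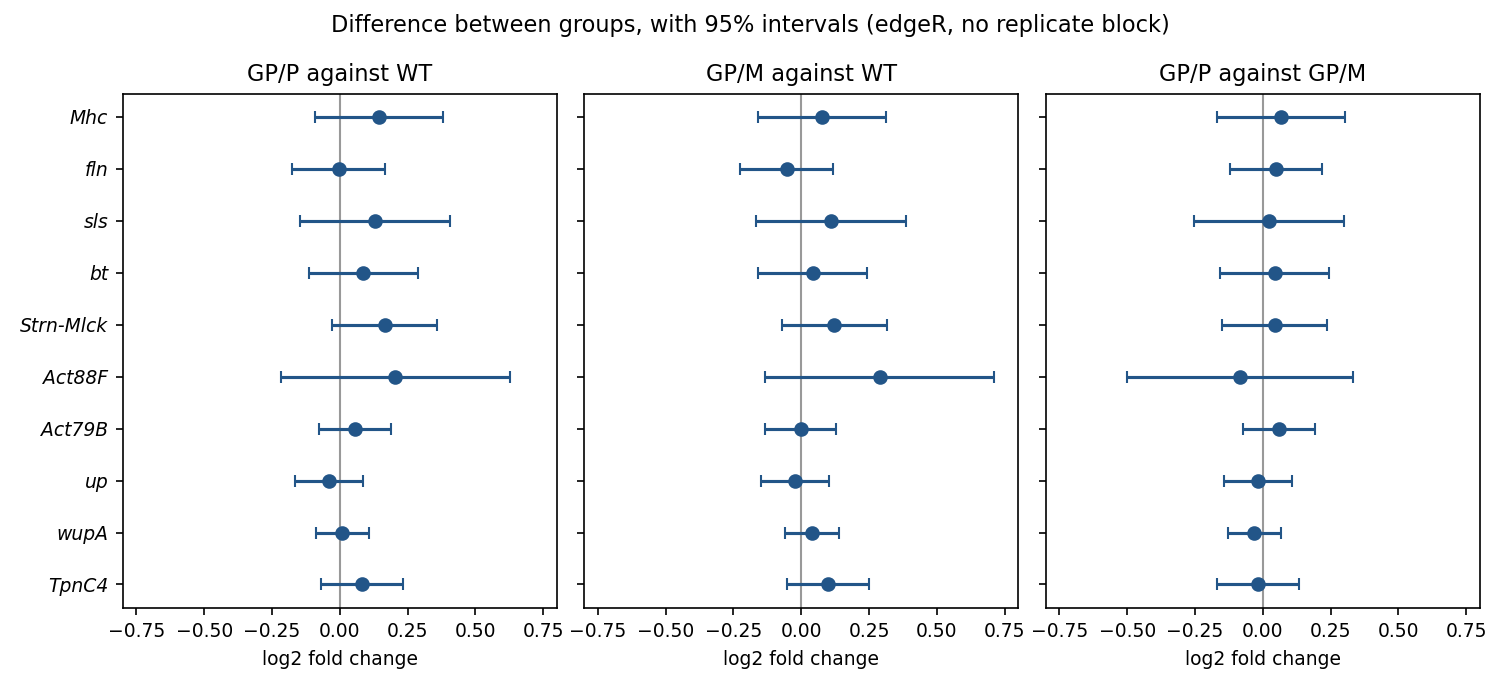
Log2 fold change of the 10 genes with 95% intervals (horizontal axes) in 3 comparisons of groups, from edgeR without a replicate block. Every interval includes 0 in this fit, which does not take the set into account, and the interval of Act88F is the widest.

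Compared within sets, GP/P was above WT in 3 of 3 sets for 6 of the 10 genes (Act88F, Strn-Mlck, Mhc, bt, sls and TpnC4), where 15.3% of all genes were. GP/M was above WT in 3 of 3 sets for 3 of the 10 genes (Act88F, wupA and TpnC4), against 10.6% of all genes. Both lines together were above WT in 3 of 3 sets for 4 genes (12.2% of all genes), and GP/P above GP/M for 1 gene, Mhc (13.9% of all genes). The log2 difference of Strn-Mlck between GP/P and WT was 0.32, 0.091 and 0.10 in sets 1 to 3, so the largest came from the set that holds the low WT 1 library. That of Act88F was 0.067, 0.54 and 0.054, the largest in the set with the low WT 2 library. With the set as a block in edgeR, 2 genes reached an unadjusted p under 0.05 in GP/P against WT, where 6.85% of all genes did. These were Strn-Mlck (log2 fold change 0.17, adjusted p = 0.546) and bt (0.088, adjusted p = 0.695). In that comparison the block lowered the SE of Strn-Mlck from 0.088 to 0.045, of bt from 0.092 to 0.038 and of Act88F from 0.18 to 0.096. In GP/M against WT, 3 genes did (Act88F, Strn-Mlck and TpnC4, each with an adjusted p of 0.999), where 3.5% of all genes did. In both lines together against WT 3 genes did (Act88F, Strn-Mlck and TpnC4), where 5.07% of all genes did, and in GP/P against GP/M 0 did, where 4.58% of all genes did. In the authors' deposited table for GP/P and WT, Strn-Mlck was at rank 25 of 13073 genes by p (0.00522). Mhc was at rank 49 (p = 0.0132) and sls at rank 86 (p = 0.0285) there, and the authors' unadjusted p of the other members was above 0.05. In the authors' deposited table for GP/M and WT, Act88F was at rank 10 of 13087 (p = 0.00301) and Strn-Mlck at rank 35 (p = 0.0424). The other members there, and all 10 in GP/P and GP/M, had an authors' unadjusted p above 0.05. The adjusted p of all 10 genes in the authors' deposited tables was above 0.999. Over all genes, the authors' adjusted p was under 0.05 for 0 genes in GP/P and WT, 4 in GP/M and WT and 1 in GP/P and GP/M.

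Exon length moved with these small differences. The 332 other genes at least as long as Mhc (9058 bases) had a median log2 fold change of 0.060 in GP/P against WT, with 84.6% above 0, and of 0.022 in GP/M against WT, with 68.4% above 0. The 4 long sarcomere genes (Mhc, bt, Strn-Mlck and sls) had medians of 0.14 and 0.092 in the same comparisons, and the 6 shorter ones 0.033 and 0.019. With a smooth trend on length removed from every library, the median of the 10 genes in GP/P against WT was 0.043 in place of 0.085. In that limma fit Strn-Mlck went from 0.17 to 0.074, sls from 0.13 to 0.026, Mhc from 0.14 to 0.096 and bt from 0.087 to -0.0032. Among the shorter genes, Act88F went from 0.20 to 0.22, fln from -0.0043 to 0.0068 and up from -0.039 to -0.056. Act79B also rose slightly there, and wupA also fell slightly. In GP/M against WT the median changed less, from 0.059 to 0.053, while sls went from 0.11 to 0.069 and bt from 0.042 to 0.011. With the median of each length bin removed instead, chosen after seeing the data, Strn-Mlck was 0.080 in GP/P and 0.082 in GP/M. Its unadjusted p in limma was 0.0398 and 0.0363 (adjusted p = 0.9997 and 0.9999), and that of the other long genes was above 0.05.

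Other muscle genes gave 0 calls in the comparisons of groups. A further 42 genes were of the thick filament, thin filament, Z-disc, muscle calcium and energy use, and muscle transcription. Of these, 34 lay above WT in GP/P (median log2 fold change 0.040) and 31 in GP/M (0.027), beside 51.8% and 51.7% of all genes. The part of exon length in these counts was not tested. The smallest p of each list in GP/P belonged to Prm (paramyosin, 1.07-fold) and Unc-89 (obscurin, 1.12-fold) of the thick filament, and to tmod (tropomodulin, 1.05-fold) and Act87E (an actin, 1.04-fold) of the thin filament. They belonged to Zasp52 (1.08-fold) and Msp-300 (1.10-fold) of the Z-disc and attachment list, Ca-P60A (the calcium pump of the sarcoplasmic reticulum, 1.05-fold) and Argk (arginine kinase, 1.05-fold), and salm (1.07-fold) and aret (1.02-fold). In GP/M the corresponding genes were Mlc2 (1.04-fold) and Mf (0.963-fold), sals (1.04-fold) and tmod (1.03-fold), cpa (1.08-fold) and Pax (1.04-fold), Argk (1.05-fold) and Rya-r44F (1.07-fold), and vg (0.896-fold) and salm (0.941-fold). Between the lines, with GP/P over GP/M, they were Mf (1.04-fold) and Prm (1.04-fold), TpnC47D (0.934-fold) and Act87E (1.03-fold), cpa (0.937-fold) and Mlp60A (0.953-fold), Ca-P60A (1.05-fold) and GstS1 (1.02-fold), and salm (1.14-fold) and vg (1.15-fold). In these 3 comparisons only cpa, an actin capping protein subunit, in GP/M against WT had an unadjusted p under 0.05 in edgeR (adjusted p = 0.999996).

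Several of the sarcomere genes differed between sets. With group as a covariate, edgeR called 6 of the 10 genes as different between sets (Act88F, Act79B, Strn-Mlck, bt, TpnC4 and fln), where 15.7% of all 12913 genes were called. Between set 3 and set 1, 6 genes were higher (sls, Mhc, bt, fln, Strn-Mlck and TpnC4), where 11.7% of all genes were called higher, and Act79B was lower, where 6.92% were called lower. Between set 3 and set 2, 4 genes were higher (Act88F, bt, Strn-Mlck and TpnC4) and 0 lower, where 4.31% of all genes were called higher and 1.61% lower. Between set 2 and set 1, 0 of the 10 genes were called, where 1.49% of all genes were called higher and 0.984% lower; at an unadjusted p under 0.05, 1 gene passed, Act79B (0.920-fold, adjusted p = 0.0922 in edgeR), and limma-voom also called 0. The median log2 difference of the 10 genes was 0.21 for set 3 against set 1 and 0.18 for set 3 against set 2, beside -0.0069 and -0.0071 over all genes.

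**Figure D3:**
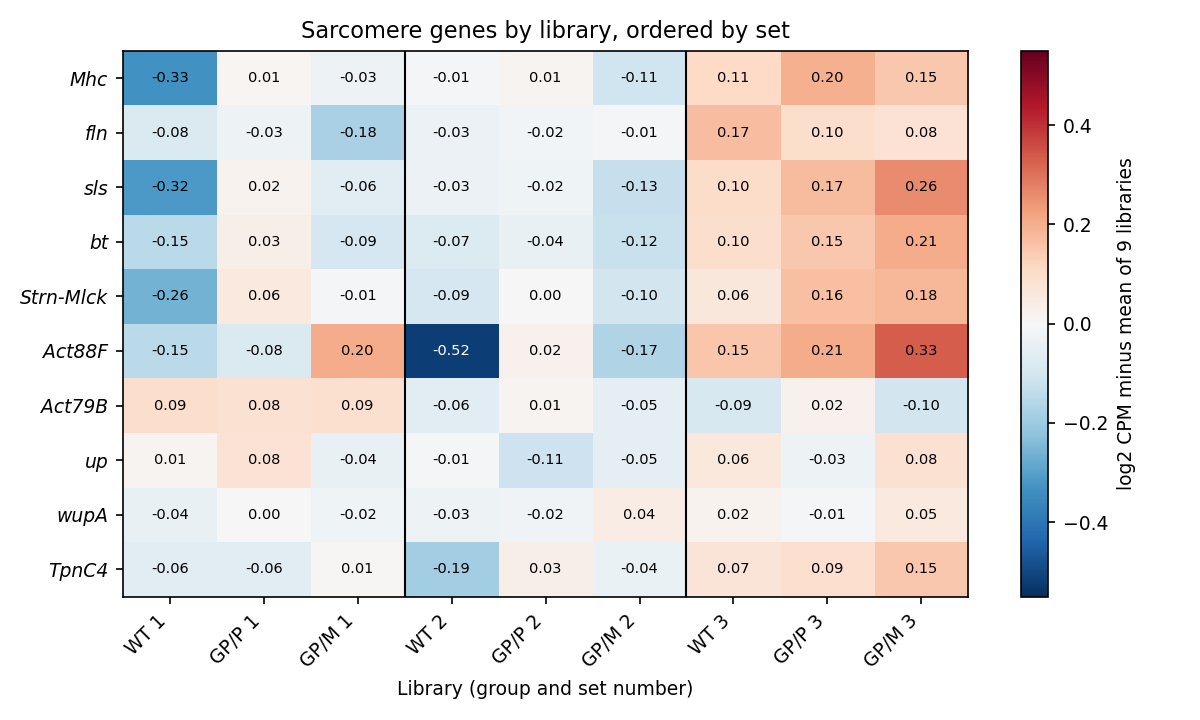
Log2 CPM of the 10 genes (rows) in the 9 libraries (columns, ordered by set), each as the difference from the gene's mean over the libraries; colours run from blue (below) to red (above). The 3 libraries of set 3 stand above the mean for Mhc, fln, sls, bt, Strn-Mlck, Act88F and TpnC4, and WT 1 and WT 2 hold the lowest values, -0.33 for Mhc and -0.52 for Act88F.

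The thick filament and connecting genes were higher in set 3 than in set 1 in every group. Mhc was 1.20-fold higher (95% interval 1.07 to 1.35, adjusted p = 0.0484 in edgeR), with a log2 difference of 0.44 among WT libraries, 0.18 among GP/P and 0.18 among GP/M. The projectin gene bt was 1.17-fold higher (1.10 to 1.23, adjusted p = 6.95e-04 in edgeR) and sls 1.23-fold (1.09 to 1.39, adjusted p = 0.0351). Strn-Mlck was 1.15-fold higher (1.08 to 1.23, adjusted p = 0.00471) and fln 1.16-fold (1.08 to 1.24, adjusted p = 0.00611). For these 5 genes and for TpnC4, the 3 libraries of set 3 lay above all 3 of set 1, where 18.4% of all genes did so.

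The thin filament genes did not move together between sets. TpnC4 was 1.10-fold higher in set 3 than in set 1 (1.04 to 1.17, adjusted p = 0.0275 in edgeR), while Act79B was lower, at 0.904-fold (0.858 to 0.953, adjusted p = 0.0086). Act88F was 1.35-fold in set 3 against set 2 (1.17 to 1.57, adjusted p = 0.034), and 1.17-fold in set 3 against set 1 without passing the adjustment (1.01 to 1.36, adjusted p = 0.127). The troponin genes up and wupA passed in no comparison of sets, at 1.01-fold and 1.03-fold in set 3 against set 1. Against set 2, set 3 was higher in all 3 groups for 9 of the 10 genes, where 22.2% of all genes were, and its libraries lay above all those of set 2 for 7 genes, where 14.7% of all genes did so. Act79B was the exception to the former, with log2 differences of -0.026 (WT), 0.0074 (GP/P) and -0.055 (GP/M).

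Several of these calls did not pass when 1 library was left out, in most cases with a log2 difference close to or above that over all libraries. Without WT 3, 3 of the 10 genes were called as different between sets (Act79B, bt and Strn-Mlck), and without GP/M 3 only bt and Strn-Mlck were. For set 3 against set 1, bt and Strn-Mlck were called whichever library was left out, and fln was lost without GP/M 1 (log2 difference 0.18). The call of Mhc was lost without WT 3 (0.24), GP/P 1 (0.30), GP/P 3 (0.28) or GP/M 3 (0.27), and that of sls without WT 3 (0.29), GP/M 1 (0.32) or GP/M 3 (0.25). TpnC4 was lost without WT 3 (0.12), GP/P 1 (0.11), GP/M 1 (0.15) or GP/M 3 (0.14). Act79B was lost without WT 3 (-0.13), GP/M 1 (-0.13) or GP/M 3 (-0.13), while Act88F passed without WT 2 (0.23) or GP/P 2 (0.24). For set 3 against set 2, bt was lost without GP/M 2 (0.20) and Strn-Mlck without GP/P 2 (0.20), GP/M 2 (0.16) or GP/M 3 (0.19). Act88F was lost without WT 1 (0.44), WT 3 (0.38), GP/M 2 (0.38) or GP/M 3 (0.46), and TpnC4 without WT 2 (0.12), WT 3 (0.15), GP/M 2 (0.16) or GP/M 3 (0.17) and in limma-voom (0.17). Mhc and sls passed without WT 1 (0.19 and 0.24) or WT 2 (0.26 and 0.32), and sls in limma-voom (0.24). Act88F was lower in set 2 than in set 1 without GP/P 2 (-0.37).

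The difference between sets followed exon length across the transcriptome. Of the 332 other genes at least as long as Mhc, 98.8% were above 0 in set 3 against set 1, with a median log2 difference of 0.24, beside -0.013 over the 12276 other genes that are shorter. The 4 long sarcomere genes had a median of 0.24. The 6 other genes with at least 28019 exon bases, the length of bt, had a median of 0.27, with quartiles of 0.13 and 0.30, and bt (0.22), Strn-Mlck (0.21) and sls (0.29) lay inside that range. Among 6353 genes of 849 to 2530 bases, the lengths of the 6 shorter sarcomere genes, the median was -0.043 with quartiles of -0.11 and 0.034. Against those quartiles, TpnC4 (0.14), fln (0.21), Act88F (0.23) and wupA (0.044) lay above, Act79B (-0.14) below and up (0.020) inside.

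**Figure D4:**
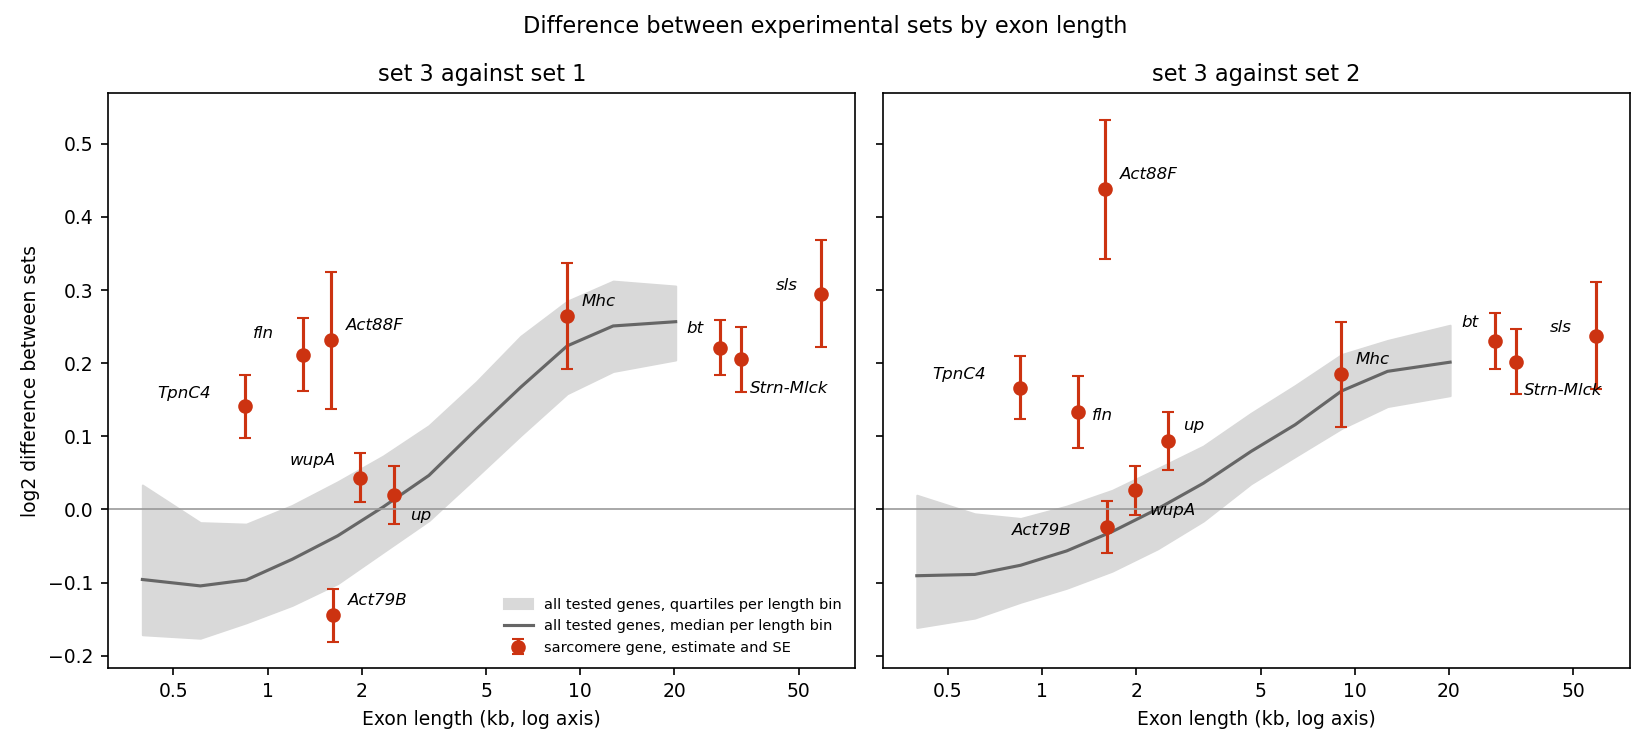
Log2 difference of set 3 from set 1 (left) and from set 2 (right) against exon length in kb (log axis); points show the sarcomere genes with their SE, the line the median and the band the quartiles of all tested genes per length bin. Mhc lies in the band and the 3 giant genes at its height, while Act88F, fln and TpnC4 lie above it in both panels.

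With the median of each length bin removed from every library, an alternative chosen after seeing the data, none of the 4 long genes was called between set 3 and set 1. Their log2 differences were then -0.020 (bt), -0.035 (Strn-Mlck), 0.055 (sls) and 0.046 (Mhc), with adjusted p of 0.371 to 0.755 in limma. The flight muscle genes fln (0.28 ± 0.044 SE, adjusted p = 0.00312) and TpnC4 (0.24 ± 0.042, adjusted p = 0.00588) were still higher in set 3 than in set 1 in that limma fit. Against set 2, TpnC4 (0.25, adjusted p = 0.0162) and Act88F (0.48, adjusted p = 0.0136) were higher, but neither passed in limma with a smooth trend on length removed instead (0.23, adjusted p = 0.0575, and 0.48, adjusted p = 0.0576). Act79B lost its call against set 1 (-0.11, adjusted p = 0.0562). The smooth trend placed sls (-0.13, adjusted p = 0.0472) and Strn-Mlck (-0.15, adjusted p = 0.0384) below set 1 in limma. Each point of that smooth trend was fitted on a share of 0.5 of the genes, so at these lengths it rests mostly on shorter genes. The length bin medians there rest on 46 genes, 3 of them sarcomere genes, with 16000 exon bases or more.

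Genes of other tissues differed between the same sets. Of all genes, 11.7% were called higher in set 3 than in set 1 and 6.92% lower. Of 7 neuron markers, 6 were called higher, and their summed level was 524 to 557 CPM in set 1 and 590 to 628 CPM in set 3. Of 7 fat body markers, 3 were called higher and 1 lower, with sums of 3461 to 3548 and 4136 to 4670 CPM. Of 8 accessory gland and testis markers, 2 were called lower, with sums of 3534 to 4004 and 3594 to 3655 CPM. Of 7 gut markers, 1 was called higher and 3 lower, with sums of 6660 to 6764 and 6356 to 6528 CPM. The 10 sarcomere genes summed to 3740 to 4348 CPM in set 1, 4042 to 4231 CPM in set 2 and 4518 to 4749 CPM in set 3. The part of other tissues in the sarcomere differences was not tested, nor was that of exon length in the marker differences between sets.

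Of the 42 further muscle genes, 15 were called higher and 2 lower in set 3 than in set 1, where 11.7% of all genes were called higher and 6.92% lower, and 12 of the 42 lay below 0. These values are without removal of the length trend, and the 332 genes at least as long as Mhc had a median log2 difference of 0.24. The part of exon length in the differences of the 42 genes was not tested. Ca-alpha1D, a calcium channel subunit (1.23-fold, adjusted p = 2.65e-04), and Rya-r44F, the ryanodine receptor (1.21-fold, adjusted p = 0.0367), led the calcium genes in edgeR. The attachment genes if, an integrin subunit (1.17-fold), and rhea, or talin (1.23-fold), and the thick filament genes Unc-89 (1.21-fold) and Prm (1.09-fold) were also higher. So were salm, a transcription factor that sets the fibrillar fate of flight muscle (1.28-fold), and sd (1.17-fold). In the thin filament list tmod was higher (1.09-fold) and TpnC25D lower (0.881-fold), and the other lower gene was Mlp84B, a muscle LIM protein (0.919-fold). The thick filament genes Mlc1 (0.966-fold) and Mf (0.971-fold) were not called. Mlp84B, Mlc1, Mf and, for set 2, Mlp60A are outside the naming rule and were picked with their values known. In set 3 against set 2, 7 of the 42 were called higher and 1 lower (Mlp60A, 0.912-fold), where 4.31% of all genes were called higher and 1.61% lower. Among those with the smallest p of a list were Unc-89 (1.17-fold), if (1.11-fold), Zasp52 (1.09-fold), Ca-alpha1D (1.12-fold) and Mef2, a muscle transcription factor (1.12-fold).

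The mean profile of the 10 genes was lowest in WT 1 (-0.13 log2 units from the mean over libraries) and WT 2 (-0.11) and highest in GP/M 3 (0.14) and GP/P 3 (0.11). Among 11785 other genes, those whose log2 CPM followed this profile most closely over the 9 libraries were CG43897 (Pearson r = 0.977), CG43729 (r = 0.968), Asph, CG11210, Ptp10D, CG32681, spel1, Doa, CG11961 and tmod (r = 0.958). Of the 11785 genes, 1.39% had r over 0.9, and libraries of the same set are not independent points. The 10 most similar genes have 2863 to 14690 exon bases, each above the median of 1792.5 bases over all genes.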

How the data were processed

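Whole-fly polyA RNA libraries (3 groups, 3 libraries each) were analysed from the raw read counts per gene that the authors deposited in 3 tables, per the file headers. Counts of a library in different tables did not differ (0 values). Per the submitters' processing notes, the tools were Novoalign and DESeq, without versions, on build dm3. A further 18 normalised columns were not used; the authors' log2 fold changes, p-values and adjusted p-values, per the file headers, were read only as deposited values. No source used here states the counting of multiply mapped reads or the use of strand. Titles of the WT libraries carry an added mark that the labels do not explain.

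Counts were fitted with edgeR 4.0.16 in R 4.3.3 (TMM, filterByExpr, robust quasi-likelihood F-test, no covariate) over all 9 libraries, with Benjamini-Hochberg adjustment over 12913 genes and calls under 0.05. Differences between sets used group as a covariate. The number pairs samples because the series text gives each experimental replicate 1 set; same-numbered deviations correlated over 0.1 in 8 of 9 pairs, and each of the 9 libraries correlated best with its own number. The labels call the replicates independent biological and experimental ones. Every pair of libraries differed beyond counting noise. Log2 CPM used a prior count of 2. Exon lengths came from an annotation of another build (12838 genes), so no coordinates are printed, and no sequences were used here. Alternatives used DESeq2 1.42.0 and limma 3.58.1. Counts of the 10 genes were 559 or more in each library.

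The 10 genes and all lists were chosen with earlier results of these data known. All 10 are named in each comparison, with the 2 smallest p of each further list and the 10 genes of highest likeness. Unc-45, Fbp1, Cp16 and Cp36 were unmatched. The edgeR script was tested on simulated data.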

Additional observations from a re-analysis of the deposited data

How the results depend on the processing

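None of the 10 genes was called between groups under any alternative, and the replicate block changed no call between groups (0 genes called in each of the 4 comparisons, 0 of them sarcomere genes). Leaving out each library in turn gave 0 to 1 genes called per comparison: GstD2 without WT 3 in the 3 comparisons with WT, and CR43263 without GP/M 3 in GP/P against GP/M. Between sets, 437 genes were called with the length trend removed and 692 with length bin medians removed, each with 3 of the 10 genes, and 1030 to 2055 genes with 2 to 8 of the 10 when a library was left out. The cause of these shifts was not tested. Removing length bin medians, a smooth trend on length with the replicate block, and bin medians with the block were chosen after seeing the data.

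Signs of log2 fold changes turned, near 0 in the comparisons of groups but also for larger differences between sets. With the length trend removed, with or without the replicate block, bt was -0.0032 and fln 0.0068 in GP/P against WT, and Strn-Mlck -0.0187, bt -0.0138, sls -0.0435 and TpnC4 0.0081 in GP/P against GP/M. With bin medians removed, with or without the block, bt was -0.0016 and fln 0.0149 in GP/P against WT, bt -0.0026 in GP/M against WT, and Strn-Mlck -0.0018, sls -0.0183 and TpnC4 0.0075 in GP/P against GP/M. In limma-voom, fln was 0.0002 in GP/P against WT. In edgeR, set 3 against set 1 was 0.21 for Strn-Mlck, 0.22 for bt and 0.29 for sls. With the length trend removed, it was -0.1533 for Strn-Mlck, -0.1219 for bt and -0.1289 for sls. Set 3 against set 2 was then 0.0005 for Act79B, -0.0767 for Strn-Mlck, -0.0361 for bt and -0.0926 for sls. With bin medians removed, set 3 against set 1 was -0.0347 for Strn-Mlck and -0.0204 for bt, and set 3 against set 2 was 0.0075 for Act79B.

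Leaving out 1 library, the log2 fold change in GP/P against WT ran from -0.0513 to 0.0706 for fln, -0.0901 to 0.0024 for up and -0.0008 to 0.0251 for wupA. In GP/M against WT it ran from -0.0588 to 0.0611 for Act79B, -0.0368 to 0.172 for Mhc, -0.0718 to 0.1155 for bt, -0.1159 to 0.0244 for fln, -0.0198 to 0.2046 for sls and -0.0682 to 0.0025 for up. In GP/P against GP/M it ran from -0.2171 to 0.0206 for Act88F, -0.0205 to 0.1252 for Strn-Mlck, -0.0569 to 0.0387 for TpnC4, -0.0177 to 0.1546 for bt, -0.0204 to 0.1082 for fln, -0.0539 to 0.1478 for sls and -0.0679 to 0.0254 for up. For set 3 against set 1 it ran from -0.0228 to 0.0818 for up. Each of the 10 genes had at least 559 counts in every library, and precision is limited by the 3 libraries a group.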
